A study of Mus musculus with 10 samples.

Results

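The Piezo and acid-sensing mechanosensory channels are a set of 8 mouse genes: Piezo1, Piezo2, Asic1, Asic2, Asic3, Asic4, Stoml3 and Tmem150c. They were taken by gene symbol from count tables of 24421 rows, and all 8 symbols were found. Each gene was followed through 10 pools of vagal sensory neurons in 5 groups of 2 pools. At least 1 count in some pool was found for 6 of the 8 genes, and Asic4 and Stoml3 had none in any pool.

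Vagal sensory neurons carry signals from the airways, heart and gut to the brainstem. In the mouse their cell bodies lie in a fused ganglion with a rostral jugular part, derived from the neural crest, and a caudal nodose part, derived from the placodes. In the Trpv1-tdTomato selection, mice carrying Trpv1-Cre and a Cre-dependent tdTomato reporter gave red nodose and red jugular neurons, each in 2 pools of 30 cells, and nodose neurons without the label, in 2 pools of 15 cells. These are called Trpv1-positive and Trpv1-negative here. In the capsaicin selection, wild-type C57BL/6 neurons were picked by their calcium response: nodose neurons (pools of 14 and 15 cells) answered both capsaicin, the agonist of TRPV1, and the P2X agonist α,β-methylene-ATP, while jugular neurons (pools of 15 and 16 cells) answered capsaicin alone. Dissociated neurons were picked under the microscope in both selections.

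The reporter stays on once Cre has acted, so that red cells are those that express or once expressed Cre from the Trpv1 locus. All pools of the Trpv1-tdTomato selection came from 2 mice, and the mouse, age and sex behind a given pool are not stated. Nothing says that the 2 pools of a group came from separate animals, so p-values measure the spread between pools, which may be technical. In pooled cells, fewer cells with a transcript and less transcript per cell cannot be told apart. The selection goes together with strain, sequencing core and depth, and these cannot be told apart either.

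Total counts per pool ran from 148452506 to 167704327 in the Trpv1-tdTomato selection and from 17666710 to 30810863 in the capsaicin selection. Trpv1 had 9 and 8 counts in the Trpv1-negative pools and at least 22.1 CPM (counts scaled for the depth of the pool, as CPM is used throughout) in every other pool. P2rx2, a marker of nodose neurons, was at 76.1 CPM or more in every nodose pool and at no more than 0.292 CPM in the jugular pools, while the 3 jugular markers (Prdm12, Tac1 and Gfra3) summed to at most 1.54 CPM in nodose and at least 411 CPM in jugular pools. Messages of satellite glia and Schwann cells were present throughout, at 1960 to 5026 CPM over 10 genes. Of the endothelial and macrophage markers, Cldn5, Cdh5, Ptprc, Aif1, C1qa and C1qb had 0 counts in every pool, as had 6 globin genes. Others of these markers were seen: Kdr reached 28.5 CPM in the second Trpv1-positive nodose pool. Cd68 reached 93.8 CPM in the first capsaicin-selected nodose pool and 22.1 CPM in the first capsaicin-selected jugular pool. Rgs5, of pericytes, was at 12.7 and 39.4 CPM in the capsaicin-selected jugular pools. Levels below are CPM scaled by size factors over all 10 pools, given for replicate 1 and then replicate 2.

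Piezo channels are large trimeric proteins that open when the membrane is stretched or indented. Piezo2 is the channel of light touch and proprioception, and in vagal neurons it is known for its part in sensing lung inflation, while Piezo1 is prominent in endothelium and red blood cells. The acid-sensing channels, encoded by the Asic genes, are trimeric sodium channels of the DEG/ENaC family that open when extracellular pH falls, and their loss in mice alters the mechanical sensitivity of some afferents. Asic3 is the subunit most tied to sensory neurons, Asic1 and Asic2 are also found throughout the brain, and the Asic4 protein does not form a proton-gated channel by itself. Stoml3, a stomatin-like membrane protein, makes Piezo channels more sensitive, and Tmem150c, also called tentonin 3, was proposed as a component of slowly adapting mechanical currents.

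Piezo2 was present in every jugular pool and nearly absent from the nodose neurons that expressed Trpv1. Its level was 54.6 and 98.9 CPM in Trpv1-positive jugular neurons and 114 and 101.5 CPM in capsaicin-selected jugular neurons. The Trpv1-positive nodose pools had 2 and 4 counts of Piezo2 (0.0128 and 0.0243 CPM) at total depths of 154542864 and 153686267, and the capsaicin-selected nodose pools had 1 and 4 counts (0.0516 and 0.290 CPM). Thus the 4 jugular pools lay far above the 4 nodose pools, with no overlap. Trpv1-negative nodose neurons took a place between, at 13.4 and 10.7 CPM (2793 and 2075 counts).

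**Figure D1:**
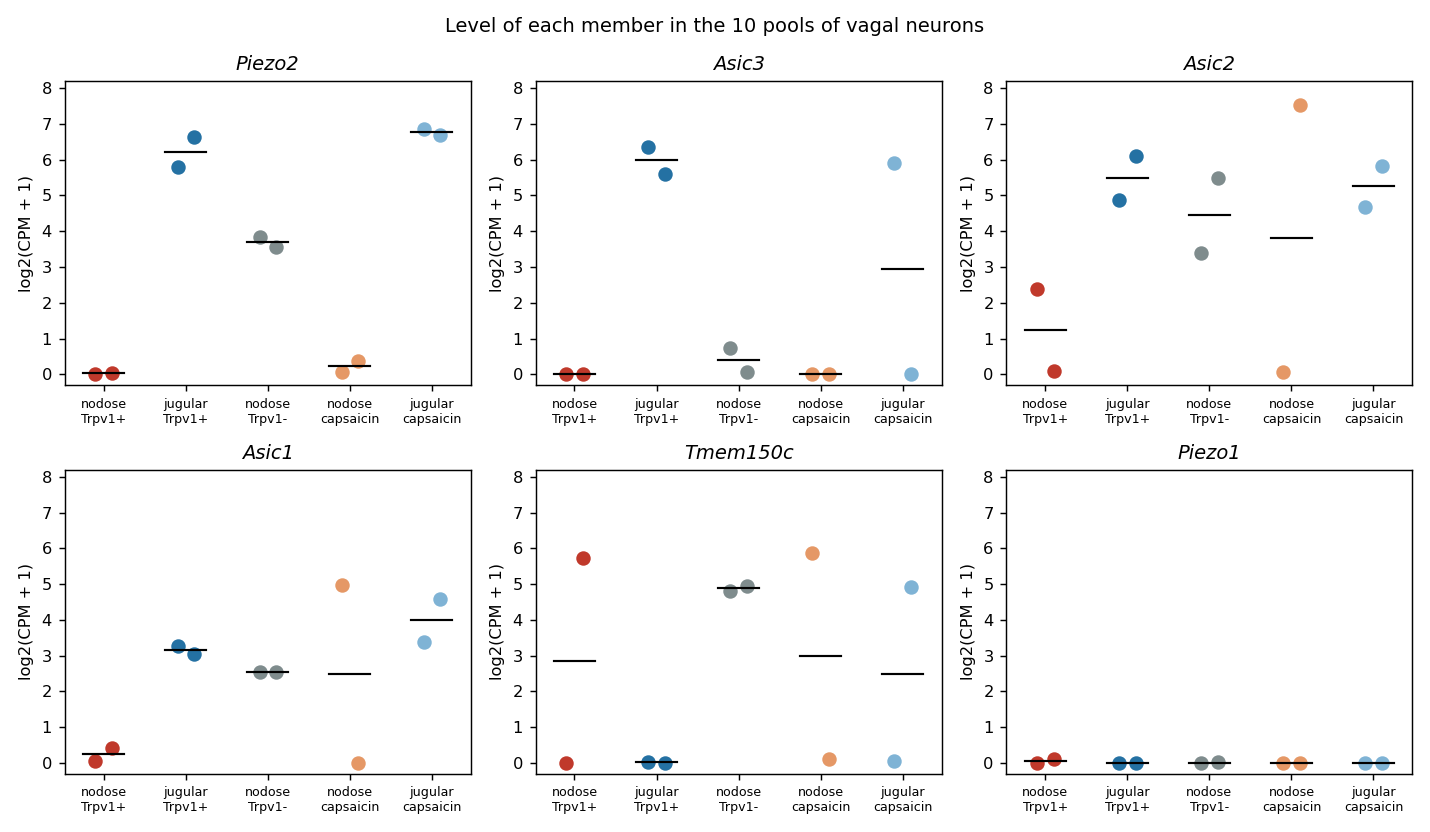
Level of the 6 detected channel genes in each pool, as log2(CPM + 1), for the 5 groups on the x axis. Each point is a pool and each line the mean of the 2 pools on that scale. Piezo2 was high in the 4 jugular pools (54.6 to 114 CPM), lower in the Trpv1-negative nodose pools (10.7 and 13.4 CPM) and close to 0 in the other nodose pools, while Asic1, Asic2, Asic3 and Tmem150c each had at least 1 group in which a pool was above 10 CPM and its replicate below 1 CPM.

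Ordered by mean, Piezo2 was at 108 ± 8.97 CPM (SD, n = 2) in capsaicin-selected jugular, 76.8 ± 31.3 CPM in Trpv1-positive jugular and 12.05 ± 1.87 CPM in Trpv1-negative nodose neurons, followed by the nodose groups at under 0.3 CPM. The difference between the means of the jugular groups was about the size of the larger SD, so those neighbours did not differ beyond their spread. For the ganglia the summed counts of the Trpv1-tdTomato selection stood in a ratio of 4150 (exact 95% interval 1910 to 11300), and those of the capsaicin selection in a ratio of 716 (307 to 2210). These intervals cover counting error only, and the reads were amplified without molecular identifiers.

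The question of the study was how the ganglia differ, and with 8 pools of both selections and the selection as a covariate Piezo2 was the only one of these genes called different. Calling a gene took a fold change of 2 or more, 10 CPM or more in both pools of a compared group and an adjusted p no higher than 0.1 in edgeR's quasi-likelihood test, with Benjamini-Hochberg adjustment over all genes tested. Piezo2 was lower in nodose neurons by a log2 fold change of -10.80 ± 1.77 (SE, adjusted p = 0.0256), against a median of -0.16 over all genes tested. Of the 5 channel genes tested there, 1 was called, and the share called among all genes tested was 0.825%. Piezo2 was also the only one of the 5 whose pools did not overlap between ganglia with the jugular pools higher, a pattern shown by 3.57% of all genes tested.

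The Piezo2 call did not survive every reduction of the data. Leaving out any 1 of 4 pools moved the adjusted p of edgeR's quasi-likelihood test just past the threshold: to 0.106 without the second Trpv1-positive nodose pool, 0.119 without the second Trpv1-positive jugular pool, and 0.115 and 0.144 without the first and the second capsaicin-selected jugular pool. Without any 1 of the other 4 pools it lay between 0.0189 and 0.0954, and the log2 fold change stayed between -11.6 and -10.4 in all 8 cases. With the replicate number as a block the adjusted p was 0.135.

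Within a selection, with 2 pools against 2, the same edgeR test called none of the channel genes. In the Trpv1-tdTomato selection the log2 fold change of Piezo2 between nodose and jugular neurons was -11.97 ± 1.87 (adjusted p = 0.191), and in the capsaicin selection it was -9.70 ± 2.37 (adjusted p = 0.352). The shares called among all genes were 0.318% and 0% in these comparisons, where 1305 and 1150 genes had an unadjusted p under 0.05. DESeq2, the tool of the study, called 2 of 6 channel genes in the Trpv1-tdTomato selection, Piezo2 (adjusted p = 1.1e-10) and Asic3, where it called 3.82% of all genes. In the capsaicin selection it called 1 of 5, Piezo2 (adjusted p = 0.0013), where it called 6.53% of all genes. With 2 pools on each side the smallest p of an exact permutation test is 0.333, so that test could not separate any of these pairs.

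Among nodose neurons Piezo2 went with the absence of the Trpv1 label. The paper reports this contrast too, calling Piezo2 richly expressed in Trpv1-negative nodose neurons and not in Trpv1-positive ones. The Trpv1-negative pools held 4868 counts of Piezo2 together and the Trpv1-positive pools 6, a ratio of 648 after scaling (exact 95% interval 298 to 1770, counting error only). The log2 fold change was 9.26 ± 2.71 in edgeR's quasi-likelihood test (adjusted p = 0.366), where none of the 4 channel genes tested was called and 0.0527% of all genes were. DESeq2 called Piezo2 here (adjusted p = 2.45e-07), 1 of 6 channel genes, beside 2.75% of all genes. Compared with Trpv1-positive jugular neurons, the Trpv1-negative nodose neurons had a Piezo2 log2 fold change of -2.69 ± 0.91 (adjusted p = 0.316 in edgeR, 0.0416 in DESeq2). These comparisons share pools and are not independent of each other.

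**Figure D2:**
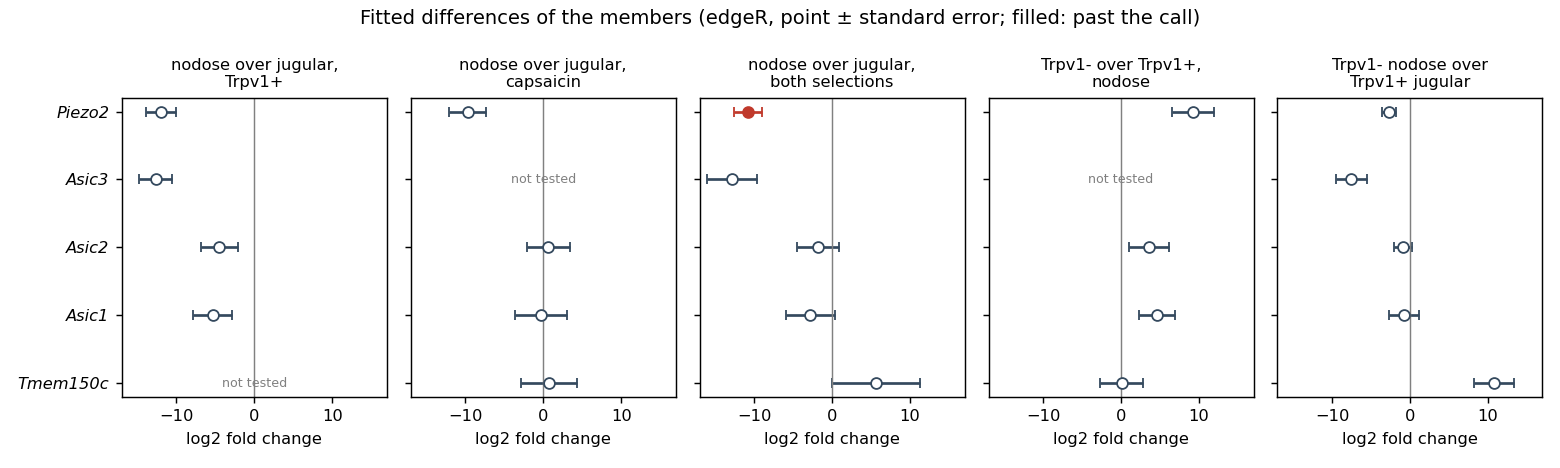
Log2 fold change of the 5 channel genes that could be tested, with its standard error, in 5 comparisons by edgeR's quasi-likelihood test. The filled red point is the single call, Piezo2 in nodose over jugular neurons of both selections (-10.80), and "not tested" marks genes with too few counts for that comparison.

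Piezo1 was not a message of these neurons at this depth. It had 14 counts (0.0850 CPM) in the second Trpv1-positive nodose pool, 2 counts in the second Trpv1-negative pool and 0 in the other 8 pools, and in no pool did it reach 1 CPM. The Piezo1 gene on the mm10 assembly lies on chromosome 8 (122481698 to 122551329, minus strand, GENCODE vM21). Its exons share 2441 of 9935 bases with those of Ctu2 on the other strand, and reads there may have been left unassigned by the counting, whose strand setting is not given in the sources used here. Asic4 (chromosome 1, 75450436 to 75474343) and Stoml3 (chromosome 3, 53488653 to 53508502) had 0 counts in all 10 pools. Counts of 0 allow up to 0.0179 to 0.0202 CPM per pool in the Trpv1-tdTomato selection and up to 0.0974 to 0.170 CPM in the capsaicin selection. The limit taken was 3 counts over the plain library total, not the size-factor scale of the levels. On that scale 1 count in the second capsaicin-selected nodose pool was 0.0725 CPM, against 0.0325 CPM over its total. These limits cover counting error only and not the gaps between replicates described below. Asic4 shares 493 exon bases with Gm37264 on the other strand.

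Asic3 was a transcript of jugular neurons, though not of each pool. The Trpv1-positive jugular pools had 81.6 and 47.2 CPM (15297 and 9431 counts), and the Trpv1-positive nodose pools had 2 counts and 1 count. In the capsaicin selection the first jugular pool had 59.0 CPM (1214 counts) but the second had 0 counts, as did both nodose pools. Trpv1-negative nodose neurons had 0.665 and 0.0413 CPM (139 and 8 counts). All pools at 10 CPM or more were therefore jugular, 3 of the 4 from that ganglion.

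Between the Trpv1-positive groups the summed Asic3 counts stood in a ratio of 6840 (exact 95% interval 2340 to 33200, counting error only), and the log2 fold change was -12.65 ± 2.09 (adjusted p = 0.21 in edgeR's quasi-likelihood test, 1.80e-10 in DESeq2). Over both selections it was -12.85 ± 3.15, which edgeR did not call (adjusted p = 0.156). DESeq2 called 2 of 5 channel genes over both selections, Asic3 (adjusted p = 4.29e-08) and Piezo2, and 8.1% of all genes. Without a filter on low counts edgeR called Asic3 as well (adjusted p = 0.0234). In the capsaicin selection Asic3 had too few counts in too few pools to be tested by edgeR. Fitted fold changes of genes with so few counts in a group depend on the small constant that edgeR adds and are not bounds.

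Asic2 had at least 1 count in each of the 10 pools, with wide gaps between replicates. Its level was 28.4 and 68.4 CPM in Trpv1-positive jugular, 24.8 and 55.8 CPM in capsaicin-selected jugular and 9.48 and 44.3 CPM in Trpv1-negative nodose neurons. In Trpv1-positive nodose neurons it was 4.27 and 0.0729 CPM. The capsaicin-selected nodose pools disagreed altogether, with 1 count in the first and 2525 counts (183 CPM) in the second. That level rests on the size factor of the pool, and with plain library totals it was 81.95 CPM. No comparison called Asic2 in either tool. In edgeR its log2 fold change between nodose and jugular neurons was -4.50 ± 2.39 in the Trpv1-tdTomato selection (adjusted p = 0.616) and 0.64 ± 2.76 in the capsaicin selection (adjusted p = 1), where it turned to -0.058 with plain library totals. For Trpv1-negative nodose neurons it was 3.59 ± 2.54 against Trpv1-positive nodose and -0.88 ± 1.195 against Trpv1-positive jugular neurons (adjusted p = 0.770 and 0.900).

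Asic1, whose product is the main proton-gated subunit of central neurons, was present at a low level in both pools of 3 groups. It was at 8.62 and 7.32 CPM in Trpv1-positive jugular, 4.82 and 4.81 CPM in Trpv1-negative nodose and 9.43 and 23.1 CPM in capsaicin-selected jugular neurons. Trpv1-positive nodose neurons had 7 and 57 counts (0.0446 and 0.346 CPM), under the levels of those 3 groups. The capsaicin-selected nodose pools were at 30.5 CPM and at 0. The log2 fold change was -5.34 ± 2.53 between the Trpv1-positive ganglia (edgeR, adjusted p = 0.537) and 4.58 ± 2.32 for Trpv1-negative over Trpv1-positive nodose neurons (adjusted p = 0.613). DESeq2 gave adjusted p-values of 0.0159 and 0.0536 for these, but no group reached 10 CPM in both pools and the gene was not called.

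Per kilobase of exon, the levels of Asic1, Asic2 and Asic3 can be set side by side. Their sum was 41.8 and 36.8 CPM per kb in Trpv1-positive jugular neurons and 1.01 and 0.0799 CPM per kb in Trpv1-positive nodose neurons, so that the nodose pools had almost no acid-sensing channel transcript of these 3 genes. Asic3 made 80.5% and 52.9% of the sum in the jugular pools, with Asic2 at 15.9% and 43.6% and Asic1 at 3.59% and 3.46%. In Trpv1-negative nodose neurons the sum was 3.34 and 11.3 CPM per kb and Asic2 was the larger part, 66.6% and 92.4%. The capsaicin-selected jugular pools (31.8 and 17.1 CPM per kb) differed in make-up, Asic3 being 76.5% of the first and 0% of the second, where Asic2 made 76.5%. The capsaicin-selected nodose pools were each made by a single gene, Asic1 at 99.8% of 5.32 CPM per kb in the first and Asic2 at 100% of 42.9 CPM per kb in the second, a sum that shrinks in proportion to Asic2 with plain library totals.

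**Figure D3:**
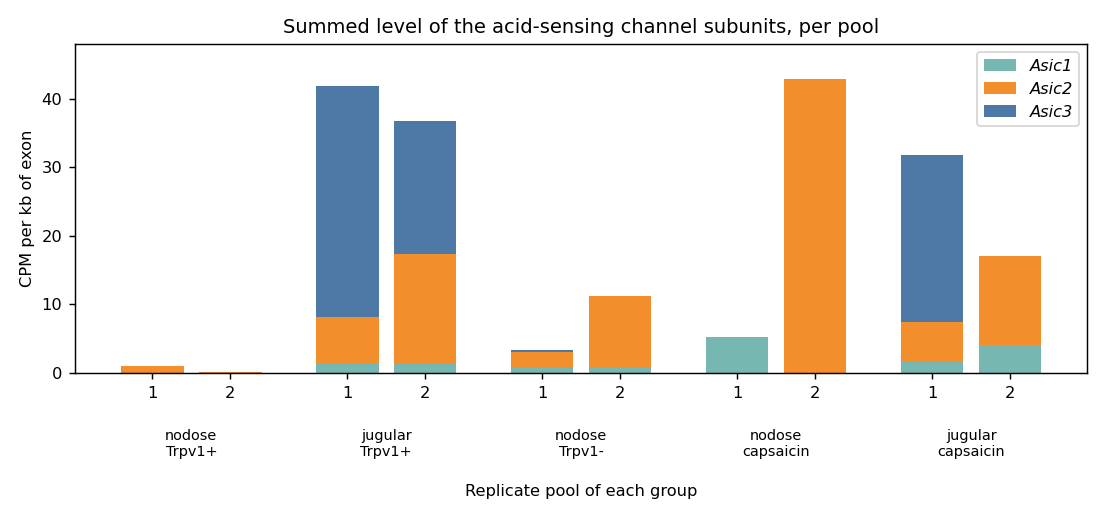
Summed level of Asic1, Asic2 and Asic3 in each of the 10 pools, in CPM per kb of exon, with the colours giving each gene's part. The Trpv1-positive jugular pools reached 41.8 and 36.8 CPM per kb with Asic3 as the larger part, the Trpv1-positive nodose pools were at 1.01 and 0.0799, and the 2 capsaicin-selected nodose pools had different genes.

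On the same scale the Trpv1-positive jugular neurons had more Asic3 and Asic2 than Piezo2 transcript. In them Piezo2 was at 3.18 and 5.76 CPM per kb, below Asic3 (33.68 and 19.5) and Asic2 (6.66 and 16.04), and above Asic1 (1.502 and 1.274). The pools of neighbours in that order did not overlap, and the closest were the lower pool of Asic2 and the higher pool of Piezo2. The capsaicin-selected jugular pools did not keep that order, with Piezo2 at 6.65 and 5.91, Asic2 at 5.82 and 13.1 and Asic3 at 24.35 and 0 CPM per kb. Piezo2 has a long transcript (17162 bases of exon, against 2423 for Asic3), and libraries primed at the poly(A) tail need not cover it evenly, so this order depends on the length correction.

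Tmem150c had a pattern of its own, high in nodose pools and in 1 jugular pool. Trpv1-negative nodose neurons had 27.1 and 29.8 CPM (5665 and 5772 counts), and Trpv1-positive jugular neurons had 5 counts and 1 count. In Trpv1-positive nodose neurons the first pool had 1 count and the second 8526 counts (51.8 CPM). Likewise the capsaicin-selected pools split within each ganglion, the nodose pools having 57.9 and 0.0725 CPM and the jugular pools 0.0486 and 29.2 CPM. The gene was thus reproducible between replicates in the Trpv1-negative nodose and the Trpv1-positive jugular groups and in no other.

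Between those groups the Tmem150c counts stood in a ratio of 1830 (exact 95% interval 843 to 5000, counting error only), with a log2 fold change of 10.73 ± 2.57 for Trpv1-negative nodose over Trpv1-positive jugular neurons. EdgeR's quasi-likelihood test did not call it (adjusted p = 0.288), nor any of the 5 channel genes tested in that comparison, which the study did not make, where 0.226% of all genes were called. DESeq2 called 3 of 5 there, Tmem150c (adjusted p = 1.94e-12) higher and Asic3 (0.000176) and Piezo2 lower in the Trpv1-negative nodose neurons, and 4.5% of all genes. For Trpv1-negative over Trpv1-positive nodose neurons the log2 fold change of Tmem150c was 0.09 ± 2.75 (adjusted p = 0.998 in edgeR), but that value rests on which Trpv1-positive pool is read: it was -0.92 without the first and 11.9 without the second. Over both selections the nodose to jugular difference was 5.60 ± 5.64 (adjusted p = 0.955), and 0.13 without the second Trpv1-positive nodose pool. The exons share 212 bases with the antisense gene Tmem150cos, which had 0 counts in every pool.

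Large gaps between replicates were a feature of several of these genes. In 15 cases a channel gene reached 10 CPM in at least 1 pool of a group, and in 6 of them the other pool was below 1 CPM: Asic1, Asic2 and Tmem150c in capsaicin-selected nodose, Asic3 and Tmem150c in capsaicin-selected jugular and Tmem150c in Trpv1-positive nodose neurons. The same gap was shown by 44.4% of all genes at that level in capsaicin-selected nodose pools, by 28.1% in capsaicin-selected jugular pools and by 15.5% to 23.0% in the groups of the Trpv1-tdTomato selection. Pools held 14 to 30 cells. The part of cell number in these gaps was not tested.

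Whether the difference between ganglia changed with the selection was tested by an interaction term. None of the 5 channel genes was called (adjusted p of at least 0.605 in edgeR), as none of all genes tested was (0%, with 1233 at an unadjusted p under 0.05). DESeq2 called 2549 of 13242 genes in that test, with an adjusted p of 0.1 or less as the only rule. Asic3 was the only channel gene among them (adjusted p = 0.0801), a gene with 0 counts in 3 of the 4 capsaicin-selected pools. At so large a share called among all genes, 1 such call does not set the channel genes apart. For Piezo2 the interaction was -2.11 ± 2.30 on the log2 scale (adjusted p = 0.893), an estimate too wide to tell whether the difference was of the same size in both selections.

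The genes whose levels followed Piezo2 most closely over the 10 pools, among 7841 genes, were Rph3a (Pearson r = 0.991 of log2(CPM + 1)), Ppm1j (0.979) and Pla2g7 (0.975). Rph3a encodes rabphilin, a protein of synaptic vesicles. Like Piezo2, each was high in jugular, intermediate in Trpv1-negative nodose and low in the other nodose neurons: Rph3a had means of 85.0 and 164 CPM in the jugular groups, 19.0 CPM in Trpv1-negative nodose and 0.714 and 0.0879 CPM in Trpv1-positive and capsaicin-selected nodose neurons. Within the 6 pools of the Trpv1-tdTomato selection Rph3a ranked 2 for Piezo2 (r = 0.995), Ppm1j 11 and Pla2g7 49, and by Spearman's rho over all pools they ranked 43, 80 and 17. Asic3 was followed most closely by Steap1 (0.982, but place 368 by rho), Lurap1l (0.974) and Fam19a1 (0.961), all highest in the jugular groups. Asic2 was closest to Rad50 (0.949), and Tmem150c to Mtfr1 (0.998), whose means were 31.4 CPM in Trpv1-positive nodose and 0.0283 CPM in Trpv1-positive jugular neurons. The pools share ganglion, selection and depth, so that these values describe likeness over a handful of groups. Between the channel genes themselves Piezo2 and Asic3 had r = 0.704, and Asic3 and Tmem150c r = -0.637.

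The neighbours of these channels in the same pathways were read from lists of 27 partner and candidate mechanosensory genes, 14 other acid-sensing genes and 19 genes typical of myelinated low-threshold afferents. Of the partner list 14 genes reached 10 CPM in both pools of a group: Stom, Stoml1, Stoml2, Mtmr2, Anxa6, Atp2a2, Pick1, Tmem120a, Tmem63b, Tmem63c, Lhfpl5, Kcnk2, Kcnk4 and Kcnk10. In edgeR none of the list was called in any comparison. In contrast to Stoml3, the related Stoml1 was found in all 10 pools, from 30.3 to 303 CPM, and Anxa6, an annexin, was at 253 CPM or more in each. Stom, the stomatin gene, reached 134 and 117 CPM in the Trpv1-positive nodose pools against 41.2 and 0.0350 CPM in the Trpv1-positive jugular pools. Kcnk4, which encodes the stretch-gated potassium channel TRAAK, was at 26.2 and 34.5 CPM in Trpv1-negative nodose neurons and at 2 and 8 counts in Trpv1-positive ones. Kcnk4 also reached 14.3 CPM in the second Trpv1-positive jugular pool and 22.4 CPM in the first capsaicin-selected nodose pool. The replicates of these pools had 1 and 0 counts. Over both selections the nodose to jugular log2 fold changes of the partner list had a median of 0.37 over 19 genes tested, 11 of them above 0, beside -0.16 for all genes.

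Of the acid-sensing list Trpv1, Kcnk3, Kcnk1, Gpr65, Tmem206 and P2rx2 reached 10 CPM in both pools of a group. Kcnk3, the acid-inhibited potassium channel TASK1, was called in edgeR between the Trpv1-positive ganglia, with 132 and 124 CPM in the nodose pools against 0.0320 and 0.0450 CPM in the jugular pools (log2 fold change 11.67 ± 1.26, adjusted p = 0.0755). Trpv1-negative nodose neurons had only 13 and 11 counts of Kcnk3 (0.0622 and 0.0569 CPM), so it was not high in all nodose neurons. In the capsaicin selection Kcnk3 was at 20.8 and 26.7 CPM in nodose and at 0.680 and 0.103 CPM in jugular pools. Over both selections edgeR's quasi-likelihood test did not call Kcnk3 (adjusted p = 0.2035). P2rx2 was called higher in nodose neurons in 3 comparisons and Trpv1 lower in Trpv1-negative neurons, but a response to a P2X agonist had been used to pick the capsaicin-selected cells, and the Trpv1 label the others. Gpr65, a proton-sensing receptor, was at 50.5 and 92.5 CPM in Trpv1-negative nodose neurons and at no more than 5 counts in each of the other 8 pools. Kcnk1 likewise had 94.2 and 33.0 CPM there and at most 8 counts elsewhere. Neither passed the test in edgeR (adjusted p = 0.366 for both against Trpv1-positive nodose neurons). Tmem206, the gene of the proton-activated chloride channel, was at 69.9 to 221 CPM in all 6 pools of the Trpv1-tdTomato selection. The list's median in that comparison of Trpv1-positive ganglia was 2.86 over 5 genes tested (the value of Trpv1 itself), 3 of them above 0, beside 0.03 for all genes. There 2 of the 5, Kcnk3 and P2rx2, were called higher in nodose neurons and none lower, where 0.318% of all genes tested were called. P2rx2 also serves above as a marker of nodose neurons, so its call lends no support to a difference in acid-sensing genes. With any 1 of the 4 pools left out, edgeR called no gene in that comparison, so the call of Kcnk3 was lost each time, and likewise that of Trpv1 between the nodose groups.

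The list of myelinated afferent genes was read beside Piezo2, which such afferents use. Its 14 genes at 10 CPM in both pools of a group were Nefh, Nefm, Nefl, Scn8a, Kcna1, Kcnc1, Calb1, Cntnap2, Ntrk3, Ntrk2, Ret, Esrrg, Etv1 and P2ry1. For Trpv1-negative over Trpv1-positive nodose neurons 17 of 18 genes tested had a log2 fold change above 0. The median of the 18 was 2.46, beside -0.01 for all genes, though none was called in edgeR. The list was chosen with earlier results of these data known, and the paper names P2ry1 from this same contrast. Esrrg (2 and 0 counts), Ntrk3 (0 and 0) and Kcna1 had almost no counts in Trpv1-positive nodose pools. They passed the filter only through the Trpv1-negative pools, which fixed their sign. The same held for a gene outside the 14, with 1 and 0 counts against 23 and 6574 in the Trpv1-negative pools. These need not be the only such signs. Counts of signs therefore only describe this list. Nefh, the heavy neurofilament, was at 666 and 593 CPM in Trpv1-negative and 97.7 and 208.5 CPM in Trpv1-positive nodose neurons. Kcna1, a potassium channel gene of large axons, was at 57.3 and 31.2 CPM in Trpv1-negative and at 4 and 6 counts in Trpv1-positive nodose neurons, and at 143.5 and 52.1 CPM in Trpv1-positive jugular neurons. P2ry1 had 85.8 and 101 CPM in Trpv1-negative nodose, 15.9 and 26.0 CPM in Trpv1-positive jugular and under 1 CPM in Trpv1-positive nodose neurons. The capsaicin-selected jugular pools, with Piezo2 at 114 and 101.5 CPM, had 0 counts of P2ry1 in both. Kcna1 was at 36.4 and 0.465 CPM in those pools. Between the Trpv1-positive ganglia 11 of the 15 genes tested had a log2 fold change below 0 for nodose over jugular (median -1.13, beside 0.03 for all genes), and the only call of the list was Etv1, a transcription factor, which was higher in nodose (234.5 and 177 against 0.107 and 0.0851 CPM, adjusted p = 0.0362 in edgeR), a call also lost without any 1 of the 4 pools. In the capsaicin selection Etv1 was at 917 and 494 CPM in nodose and at 0.437 and 124.6 CPM in jugular pools. Over both selections edgeR's quasi-likelihood test did not call Etv1 (adjusted p = 0.334).

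**Figure D4:**
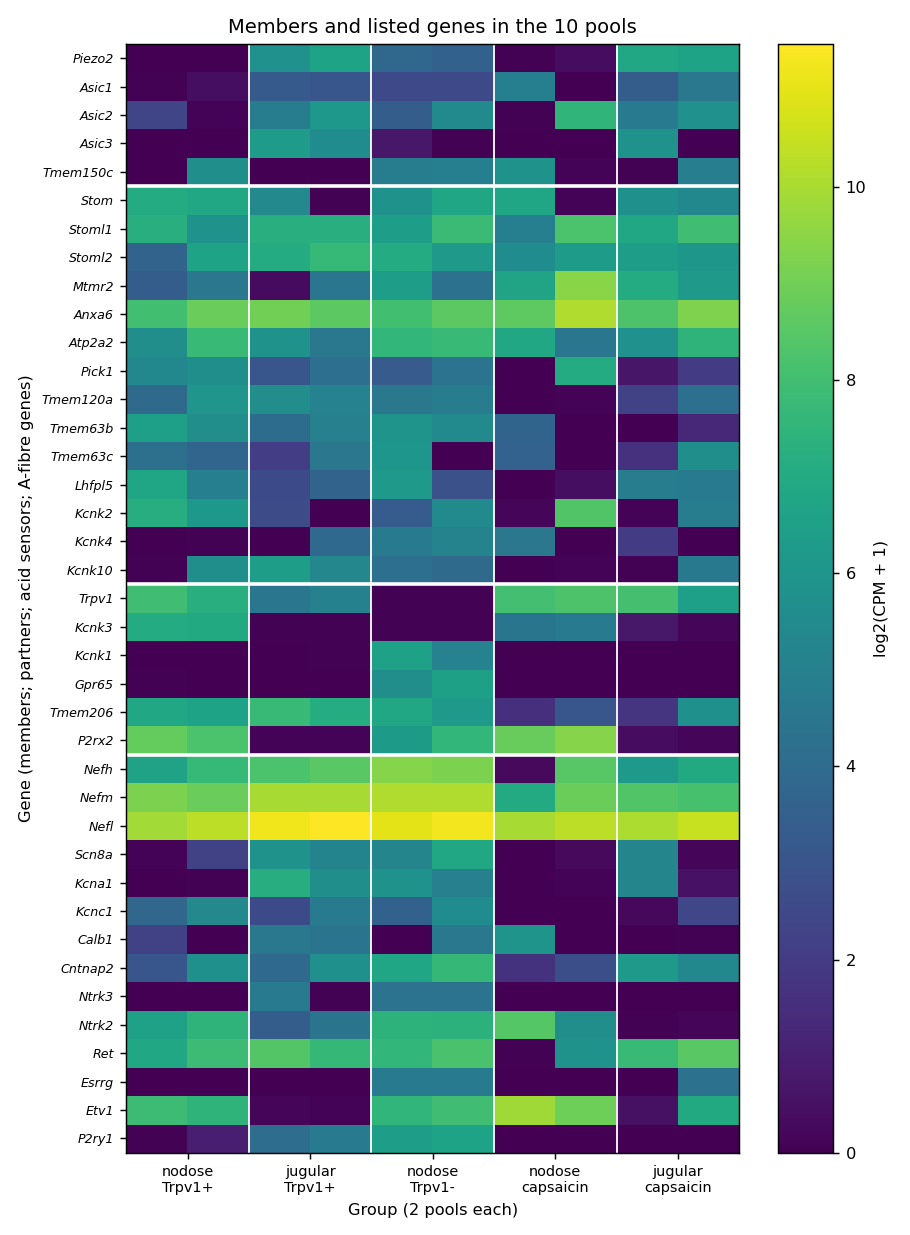
Levels as log2(CPM + 1) in the 10 pools (columns, 2 per group) of the 5 channel genes tested and of the listed genes at 10 CPM in both pools of a group (rows, in blocks of channel genes, partners, acid sensors and myelinated afferent genes). Piezo2, Kcna1 and P2ry1 were seen in Trpv1-positive jugular and Trpv1-negative nodose pools and were under 1 CPM in Trpv1-positive nodose pools. Of them only Piezo2 was above 10 CPM in both capsaicin-selected jugular pools. Kcnk1 and Gpr65 appeared in the Trpv1-negative pools.

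Markers of other cells moved in part with these genes. The 10 glial genes summed to 4245 to 4417 CPM in Trpv1-positive nodose, 3684 to 5026 CPM in Trpv1-positive jugular and 3782 to 4210 CPM in Trpv1-negative nodose neurons, and to 2239 to 2727 against 1960 to 2412 CPM in the nodose and jugular pools of the capsaicin selection. In the Trpv1-tdTomato selection most of that sum was Apoe, at 2528 to 3814 CPM. S100b ran with Piezo2 there, with 205 and 235 CPM in Trpv1-positive nodose, 521 and 441 CPM in Trpv1-positive jugular and 449 and 418 CPM in Trpv1-negative nodose neurons. Sox10 was at 12.6 and 2.78 CPM in the Trpv1-negative pools and at no more than 0.219 CPM elsewhere. The 5 fibroblast genes summed to 51.5 to 296 CPM in the capsaicin-selected jugular pools, 0 to 47.6 CPM in the capsaicin-selected nodose pools and at most 38.1 CPM in the Trpv1-tdTomato selection. The part of these cells in the levels of the channel genes was not tested.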

How the data were processed

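RNA was sequenced from pools of picked neurons without extraction (SMARTer Ultra Low Input kit v3, oligo-dT priming, paired-end reads). The authors aligned reads to mm10 with TopHat2 2.0.9 and Bowtie2 2.1.0.0 and deposited raw counts per gene symbol from HTSeq, not normalized. The HTSeq annotation, overlap mode and strand setting are not given in the sources used here. All 10 pools were used, grouped by their labels.

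Counts were tested with edgeR 4.0.16 (TMM, filterByExpr, quasi-likelihood F test, Benjamini-Hochberg adjustment) in R 4.3.3, and with DESeq2 1.42.0 (Wald test, no shrinkage) as an alternative. The thresholds were those of the study, and the CPM minimum of a call used size factors of the compared pools. The SE is the log2 fold change over the square root of F. Printed levels used DESeq2 size factors over all 10 pools. Exon lengths, positions and overlaps came from GENCODE vM21 (GRCm38). Levels per kb divide by the union of exons. Scripts were tested on simulated counts. Genes named from the lists were those called in a comparison or at 10 CPM in both pools of a group. Genes alike were the 3 with the highest r of log2(CPM + 1). The genes and lists were chosen with earlier results of these data known. Other normalizations and filters, a replicate block, a fit of all pools, leaving out Rn45s and leaving out each pool were tried. The summed level of the nodose marker list is not reported here.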

Additional observations from a re-analysis of the deposited data

How the results depend on the processing

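In the order Trpv1-positive ganglia, capsaicin-selected ganglia, Trpv1-negative over Trpv1-positive nodose, Trpv1-negative nodose over Trpv1-positive jugular, ganglia of both selections and interaction, edgeR called 35, 0, 6, 26, 88 and 0 genes, DESeq2 510, 707, 390, 639, 1120 and 2549, and edgeR without a filter on low counts 59, 122, 10, 47, 222 and 102. With the replicate block the first 5 gave 13, 20, 1, 2 and 41. A fit of all 10 pools gave 110 genes for the capsaicin-selected ganglia, 14 for Trpv1-negative nodose over Trpv1-positive jugular and 213 for both selections. Leaving out a pool in turn gave 0 to 0, 0 to 29, 0 to 0, 1 to 2, 36 to 82 and 0 to 195. A pool left alone in its group was assumed to vary like the others.

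Over both selections 41 genes were called higher and 47 lower in nodose neurons, and with plain library totals 29 and 56. With these totals the median log2 fold change of all genes moved from -0.02 to -0.31 in the capsaicin-selected ganglia and from -0.01 to 0.35 between the nodose groups. Same-numbered pools did not deviate together (r from -0.0074 to 0.0147), which gave no sign of pairing by number. With such wide gaps between replicates this cannot exclude that same-numbered pools shared a mouse. The Piezo2 call over both selections was lost under the replicate block (log2 fold change -11.0, adjusted p = 0.135), and the other block fits changed no call of a channel gene.

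In edgeR the signs that turned were of uncalled values. Between the capsaicin-selected ganglia leaving out pools gave Asic1 from -11.4 to 0.71 (0.57 without the second jugular pool), Asic2 from -9.63 to 1.65 and Tmem150c from -8.05 to 8.93 (-0.24 without the first jugular pool). Asic2 was -0.058 with plain totals and -3.64 with the replicate block. Between the nodose groups Tmem150c ranged from -0.92 to 11.9. Over pools left out in edgeR the interaction ranged from -7.09 to 8.25 for Asic1, -9.96 to 5.39 for Asic2, -12.6 to 2.82 for Asic3 and -1.89 to 18.8 for Tmem150c, while DESeq2 gave and called 11.4 for Asic3 with all pools. The cause was not tested. Depth limits the capsaicin-selected pools most, where 3 counts over the plain library total are 0.0974 to 0.170 CPM.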

Other observations

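Single genes typical of other cell types stood high in single pools. The second Trpv1-positive nodose pool, which held the 14 counts of Piezo1, had 4684 counts of Kdr (28.5 CPM), an endothelial receptor gene, and its replicate had 0. In that pool Pecam1 had 3 counts and Cldn5 had 0. Cd68, a gene of macrophages, was at 93.8 CPM in the first capsaicin-selected nodose pool, where Asic1 and Tmem150c were high and Asic2 was near 0, and at 0.145 CPM in the second. Rgs5, a gene of pericytes, was seen only in the capsaicin-selected jugular pools, at 12.7 and 39.4 CPM. Dcn, a fibroblast gene, was at 296 and 21.0 CPM in those pools.

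Esrrg and Ntrk3, genes of myelinated afferents, were found with Piezo2 and Tmem150c in the Trpv1-negative nodose pools. Esrrg was at 25.02 and 26.7 CPM there, at 19.1 CPM in the second capsaicin-selected jugular pool, which also held Tmem150c, and at no more than 4 counts in the other 7 pools. Ntrk3, the receptor of neurotrophin-3, was at 19.5 and 19.8 CPM in the Trpv1-negative pools, at 26.6 CPM in the first Trpv1-positive jugular pool and at no more than 7 counts in the rest. Neither difference between Trpv1-negative and Trpv1-positive nodose neurons was called in edgeR's quasi-likelihood test (adjusted p = 0.366 for both, by Benjamini-Hochberg adjustment).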
